A study of Homo sapiens with 2 samples.

Results

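The imprinted H19-IGF2-KCNQ1 domain lies near the telomere of the short arm of chromosome 11. It was examined here as the LSD2 intervals whose midpoints fell in chr11:2000000-3000000 (hg19), and it held 85 of the 370863 distinct intervals of the whole list. The rest of the first 10 Mb of the chromosome, which served for comparison, held 1017. The stretch was set by position and not by any measured value. It takes in H19 (chr11:2016406-2019065, 2.66 kb), IGF2 (chr11:2150347-2170833, 20.5 kb) and KCNQ1 (chr11:2465914-2870339, 404 kb). CDKN1C and PHLDA2 follow KCNQ1 in the RefSeq gene order on GRCh38.p14. Their bounds on hg19 were not used here, so they are reported only through the stretch beyond KCNQ1.

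ChIP-seq, the sequencing of DNA precipitated with a chromatin protein, was applied to map the histone demethylase LSD2 in HepG2, a human liver tumour line, in high glucose (25 mM) medium. There was 1 library of chromatin precipitated with a rabbit polyclonal antibody to LSD2 and 1 input library of chromatin not precipitated, both from untreated cells of the same line. The deposited intervals are regions where LSD2 ChIP exceeded input, given as positions with no height, fold or p. With 1 library in each group there is no replicate error to judge a difference by, and how deeply either was sequenced is unknown here. No expression was measured, so the cell type could not be checked against its markers. The intervals on counts below cover counting error only and treat neighbouring LSD2 intervals as independent.

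Imprinted genes are expressed mainly from the copy inherited from 1 parent. H19, a noncoding RNA, and IGF2, a fetal growth factor, are expressed from opposite copies. Their shared control region lies just upstream of H19, is methylated on the paternal copy, and on the maternal copy binds CTCF, which keeps enhancers downstream of H19 from reaching IGF2. A second control region lies inside KCNQ1, at the start of the antisense noncoding RNA KCNQ1OT1, which silences neighbours such as CDKN1C, a cell cycle inhibitor, and PHLDA2, a limiter of placental growth. LSD2, encoded by KDM1B, removes methyl groups from lysine 4 of histone H3, is needed in mouse oocytes to set maternal methylation marks at some imprinted genes, and is known to associate with the bodies of transcribed genes.

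The start of H19 and the microRNA within its transcript are shown because no LSD2 interval lay within 10 kb of the gene. The RefSeq promoter on GRCh38.p14 (minus strand) runs from 250 bases before the annotated start to 50 after it. That gene model is 6091 bp long, against 2660 bp between the bounds used here, so the 2 starts need not coincide. CG dinucleotides are in capitals.
H19 promoter: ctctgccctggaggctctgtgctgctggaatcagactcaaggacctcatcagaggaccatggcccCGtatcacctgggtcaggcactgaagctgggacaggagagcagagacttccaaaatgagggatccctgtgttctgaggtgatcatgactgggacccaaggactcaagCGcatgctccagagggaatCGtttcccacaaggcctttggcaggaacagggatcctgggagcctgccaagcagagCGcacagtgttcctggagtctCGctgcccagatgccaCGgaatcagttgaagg
The sequence holds 6 CG, a motif that reads the same on both strands, and its G and C content is 57.7%. Among the 35116 RefSeq promoters of this length the median was 14 CG, 36.8% held 6 or fewer, and 96.0% held at least 1. For IGF2, KCNQ1, CDKN1C and PHLDA2 no promoter is printed. The first exon of H19 also carries the precursor of miR-675, whose mature forms are given with the seed (bases 2 to 8) in capitals.
hsa-miR-675-5p: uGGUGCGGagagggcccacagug
hsa-miR-675-3p: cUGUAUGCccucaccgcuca
The 2 forms have different seeds.

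LSD2 intervals were unevenly spread over the domain, few around H19 and IGF2 and many in the middle of KCNQ1 and at the far end. From the domain's start to KCNQ1 there were 19 intervals in 466 kb, or 40.8 per Mb (exact Poisson 95% interval 24.6 to 63.7). From the start of KCNQ1 to the domain's end there were 66 in 534 kb, or 124 per Mb (95.6 to 157). The 2 counting intervals did not overlap. The first 500 kb of the domain held 21 intervals and the last 500 kb held 64. The map of interval widths shows this unevenness.

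**Figure D1:**
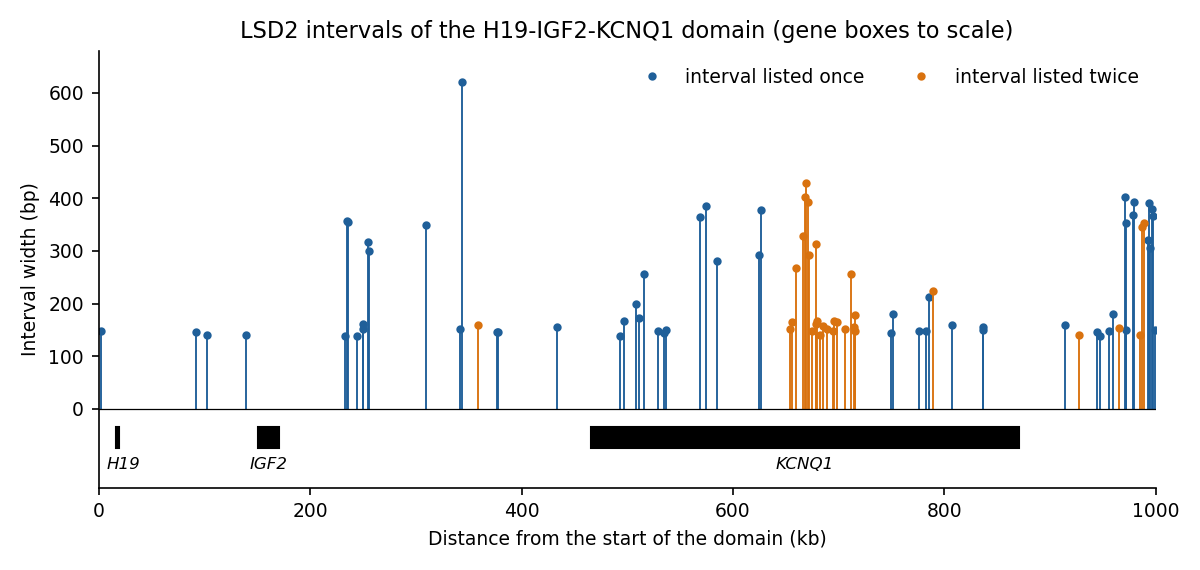
Each of the 85 LSD2 intervals of the domain is drawn at its distance from the domain's start (x axis, kb) with its width as height (y axis, bp), in blue where the list gave it once and in orange where it gave it 2 times, with boxes for H19, IGF2 and KCNQ1 to scale. H19 and IGF2 have no interval over or beside them, and the orange intervals stand mainly in 1 block of 23 within KCNQ1.

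No LSD2 interval overlapped H19, and none lay within 10 kb of it. The nearest on the side of its 3′ end was 148 bp wide, at chr11:2001956-2002103, 14.3 kb away. On the upstream side, where the control region shared with IGF2 lies, the nearest was 145 bp wide, at chr11:2092305-2092449, 73.2 kb away. H19 thus sat inside a stretch of 90.2 kb without an interval. At the density of the rest of the first 10 Mb a gene of this length would hold 0.301 intervals, so the empty gene body by itself carries little information, and the stretch around it is the measurement.

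IGF2 likewise held 0 intervals, with none within 10 kb. The nearest towards H19, on the side of its 3′ end, was 140 bp wide at chr11:2139592-2139731, 10.6 kb away. Upstream of IGF2, on the side where RefSeq order places INS (insulin) and TH (tyrosine hydroxylase, which makes the precursor of dopamine), the nearest was 139 bp wide at chr11:2232879-2233017, 62.0 kb away. The stretch without an interval around IGF2 was 93.1 kb long. The rest's density would give 2.32 intervals for a gene of this length, and the count of 0 has an upper limit of 180 per Mb, above the 113 per Mb of the rest, so at this length a lower density in the gene body was not detectable.

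Between H19 and IGF2 there were 3 intervals in 131 kb, or 22.9 per Mb (4.71 to 66.8), which was 0.202 times the rest (exact 95% interval of the ratio 0.0416 to 0.593). All 3 were narrow, at 145, 141 and 140 bp, the second of them at chr11:2102039-2102179. The list gave each of these 3 intervals once. The 16.4 kb between the domain's start and H19 held 1 interval.

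The stretches around H19 and IGF2 were the third and the second longest of the 1102 that follow an interval in the first 10 Mb of the chromosome. The longest, of 217 kb, begins at position 1069120, nearer the telomere. The sequence before the chromosome's first interval was not ranked, and the first 100 kb held 0 intervals. In the whole list 0.138% of the stretches between neighbouring intervals were at least as long as that around H19, and 0.126% at least as long as that around IGF2. These are shares by number, and a given gene falls in a long stretch more readily than in a short one. In the rest, stretches over 50 kb were 1.77% by number but 14.1% of the length. Between neighbouring intervals of the rest, only the stretch of 217 kb was as long as these 2, and the next measured 83.5 kb. Over the whole list, the share of sequence in stretches as long as these 2 was not determined. Both ends of KCNQ1 also lay in long stretches without an interval. The stretch over its start was 58.9 kb, with 32.0 kb before the gene and 26.9 kb inside it. The stretch over its 3′ end was 77.5 kb, with 33.4 kb inside the gene and 44.1 kb beyond it.

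**Figure D2:**
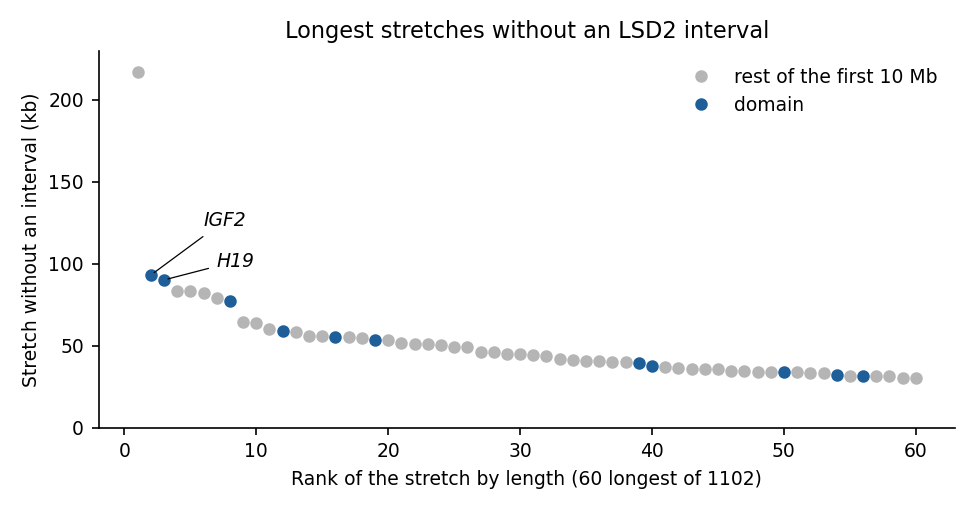
The 60 longest stretches between neighbouring LSD2 intervals in the first 10 Mb of chromosome 11 are ranked by length (x axis, rank; y axis, kb), with those of the domain in blue and the others in grey. The stretches holding IGF2 (93.1 kb) and H19 (90.2 kb) take ranks 2 and 3, and 6 of the 24 stretches over 50 kb lie in the domain.

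In all, 6 stretches over 50 kb began in the domain and made up 42.9% of its length, against 18 such stretches and 14.1% of the length in the rest. As a share of the spaces between neighbours this was 7.06% (Wilson 95% interval 3.28% to 14.6%) in the domain and 1.77% (1.12% to 2.78%) in the rest. Within the rest the first 2 Mb of the chromosome, next to the domain on the telomere side, had 7 of them among 111 intervals, or 6.31%, while 3 to 10 Mb had 11 among 906, or 1.21%. By number, the share in the domain was thus close to that of the first 2 Mb. By length, the share was not determined for the first 2 Mb alone. Its 7 stretches included those of 217, 83.5, 82.2, 63.9 and 55.9 kb, and the sequence before the chromosome's first interval was not counted. The median space between neighbours was 3873 bp (2364 to 5706 bp) in the domain and 4552 bp (4037 to 5252 bp) in the rest, with overlapping intervals. Its direction turned with the block of intervals listed 2 times in KCNQ1, without which the domain's median was 5356.5 bp, and with the comparison, since the 1 Mb on either side had a median of 3620 bp.

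Between IGF2 and KCNQ1 there were 15 intervals in 295 kb, or 50.8 per Mb (28.5 to 83.8), which was 0.450 times the rest (0.251 to 0.746). RefSeq order on GRCh38.p14 places INS, TH, ASCL2 (a transcription factor of trophoblast and intestinal stem cells), TSPAN32, CD81 (tetraspanin membrane proteins), TSSC4 and TRPM5 (a cation channel of taste cells) here, and none of them was placed on the intervals. A group of 8 intervals ran from chr11:2232879-2233017 to chr11:2255620-2255919. It held 2 of the wider intervals side by side, of 357 bp at chr11:2234641-2234997 and 354 bp at chr11:2235549-2235902. The widest interval of the domain, 621 bp, was at chr11:2343115-2343735. The others among the 5 widest measured 428, 403, 402 and 393 bp, and 3 of these lay inside KCNQ1.

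Single intervals broke up otherwise empty sequence on this side of KCNQ1. At chr11:2433745-2433900 an interval of 156 bp stood alone in 115 kb. It was 1 of 4 intervals of the domain that lay over 20 kb from both neighbours, the others being at chr11:2001956-2002103, chr11:2139592-2139731 and chr11:2309529-2309877. The last of these was 349 bp wide and the other 3 were 140 to 156 bp. Such isolated intervals made up 4.71% of the domain (1.85% to 11.5%), 1.77% of the rest (1.12% to 2.78%) and 8.11% of the first 2 Mb. All 4 lay before KCNQ1.

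KCNQ1, which encodes a voltage-gated potassium channel of heart and epithelia, held 45 intervals, or 111 per Mb (81.2 to 149), against 113 in the rest (ratio 0.985, 0.714 to 1.33). Within the gene the intervals were unevenly spread. When the gene was cut into 10 equal parts in the direction of transcription, the counts were 2, 6, 3, 2, 4, 15, 4, 5, 2 and 2. The sixth part, from 202 to 243 kb after the start, thus held 15 intervals, or 371 per Mb, while no other part exceeded 6. The first interval began 26.9 kb after the start of the gene.

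**Figure D3:**
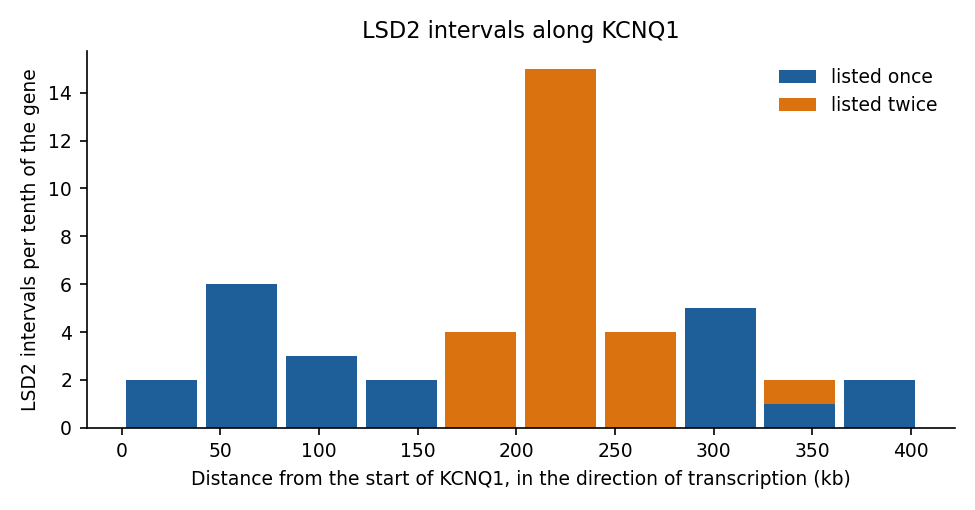
LSD2 intervals in 10 equal parts of KCNQ1 (y axis, number) against the distance from the start of the gene in the direction of transcription (x axis, kb), with intervals listed once in blue and those listed 2 times in orange. The sixth part holds 15 intervals, all listed 2 times, and every interval from the fifth to the seventh part is orange.

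The dense part of KCNQ1 coincided with a block of 23 successive intervals that the deposited list gave exactly 2 times each. The block ran from 2654290 to 2715778, or 188 to 250 kb after the start of the gene. It held 51.1% of the intervals of KCNQ1 in 15.2% of its length, at 374 per Mb (237 to 561). The remaining 22 intervals of the gene lay at 64.2 per Mb (40.2 to 97.1). The block was picked out after the list had been seen, so this contrast is a description. The interval before it, at chr11:2626287-2626664, and the one after it, at chr11:2749813-2749956, were both listed once and lay 27.6 kb and 34.0 kb away. KCNQ1OT1, the antisense RNA that starts at the second control region, comes next after KCNQ1 among the listed genes in RefSeq order. That order rests on lower bounds only, so it does not place KCNQ1OT1 beyond the end of KCNQ1. The bounds of KCNQ1OT1 on hg19 were not used here, so its overlap with the block was not determined.

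Within the block the widest intervals stood together. Successive intervals of 328, 403, 428, 393 and 292 bp ran from chr11:2666274-2666601 to chr11:2671920-2672211. The 428 bp interval, at chr11:2668897-2669324, was the second widest of the domain. Of the 23 intervals 15 were under 200 bp, down to 140 bp at chr11:2682189-2682328. Spaces within the block had a median of 1945 bp, with a smallest of 178 bp, between chr11:2678210-2678522 and chr11:2678701-2678862, and a largest of 7.54 kb. That smallest space was the only one under 200 bp in the domain, and another in the block was exactly 200 bp. Spaces under 200 bp amounted to 1.18% (0.208% to 6.37%) of the domain's intervals, against 4.23% (3.15% to 5.65%) of those in the rest. The share was 1.80% in the first 2 Mb and 4.53% in 3 to 10 Mb. The block's median width was 164 bp, and that of the other intervals of KCNQ1 was 169 bp, and their 95% intervals (151 to 268 bp and 148 to 256 bp) overlapped.

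The widest intervals of KCNQ1 outside the block lay before it. Before the block there were 13, and the 5 nearest to it measured 365, 386, 281, 292 and 378 bp, from chr11:2568273-2568637 to chr11:2626287-2626664. The 8 closer to the start of the gene measured 138 to 256 bp, the first at chr11:2492811-2492948 and the eighth at chr11:2536415-2536564. After the block there were 9 of 144 to 223 bp, so no interval of the gene beyond it reached the width of those 5. The 5 were picked out after the list had been seen, and the widths of the other 8 overlapped those of the 9. The last 2 of the gene, at chr11:2836338-2836492 and chr11:2836790-2836938, were 297 bp apart and were followed by the empty stretch over its 3′ end.

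Repeated listing in the domain rested on this block. Of the 85 intervals 30, or 35.3% (Wilson 26.0% to 45.9%), were listed 2 times, against 23.6% (21.1% to 26.3%) listed 2 or more times in the rest and 10.1% in the whole list. Without the block 7 of 62, or 11.3% (5.58% to 21.5%), were. The block was chosen as a run of intervals listed 2 times, so leaving it out had to lower the share. The rest kept its own runs, so the 11.3% is not a like comparison with its 23.6%. The 7 comprised 1 between IGF2 and KCNQ1, at chr11:2358802-2358961, 1 more in KCNQ1, at chr11:2789549-2789771, and 5 beyond it. No interval of the domain was listed more often than that, and 64 of the 1017 in the rest were listed 3 or more times, up to 5. Of the 64, 61 lay in 3 to 10 Mb and 3 in the first 2 Mb. The 1 Mb on either side, with 179 intervals, also held 0 of them. In the rest the longest run of successive intervals listed 2 or more times had 45 and the next longest had 16, and the longest run given exactly 2 times had 13. Over the whole list 75 of 11998 such runs, or 0.625%, had at least 23 intervals, and the longest had 105. This share counts each run once whatever its length, and the block was taken as the longest such run of the domain. The share of repeated intervals that lay in runs this long was not determined.

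Beyond KCNQ1 the last 130 kb of the domain held 21 intervals, or 162 per Mb (100 to 248), the highest density of the domain's 7 parts and 1.43 times the rest (0.883 to 2.20). In RefSeq order on GRCh38.p14 the listed genes that follow KCNQ1 and KCNQ1OT1 begin with KCNQ1DN, CDKN1C and SLC22A18 (a transporter of organic cations, listed there as SLC67A1). After these come PHLDA2, NAP1L4 (a histone chaperone) and OSBPL5 (a lipid transfer protein). Order alone does not show which of them end before the domain's edge. The nearest to KCNQ1 was at chr11:2914466-2914624, 44.1 kb beyond the gene's end. The first 7 intervals were narrow and spread out, with a median of 148 bp and none above 181 bp. The other 14 were taken as a group over 28.8 kb, from 2970503 to 2999281, with a median width of 352 bp and a median space of 918 bp. Spacing did not set the group apart. It held spaces of 6075 and 5706 bp, against 4731 bp before its first interval and 5178 bp after its last. Its far end was set by the edge of the domain. In this group 11 of 14 were at least 300 bp wide, the widest being 402 bp at chr11:2970503-2970904, and 3 neighbouring ones were listed 2 times. This group was also defined after the positions had been seen.

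Over the whole domain, interval widths overlapped those of the rest. The median was 164 bp (95% interval 153 to 212 bp) in the domain and 173 bp (169 to 179 bp) in the rest. Intervals of 200 bp or more made up 38.8% (29.2% to 49.5%) and 43.1% (40.1% to 46.1%). Parts differed, with medians of 141 bp between H19 and IGF2 (n = 3), 160 bp between IGF2 and KCNQ1, 166 bp in KCNQ1 and 305 bp beyond it (95% interval 150 to 366 bp, which includes the medians of KCNQ1 and of the rest). The intervals covered 19.3 kb, or 1.93% of the domain, against 2.69% of the rest, and over the parts with more than 1 interval the covered share ran from 0.324% between H19 and IGF2 to 4.23% beyond KCNQ1.

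**Figure D4:**
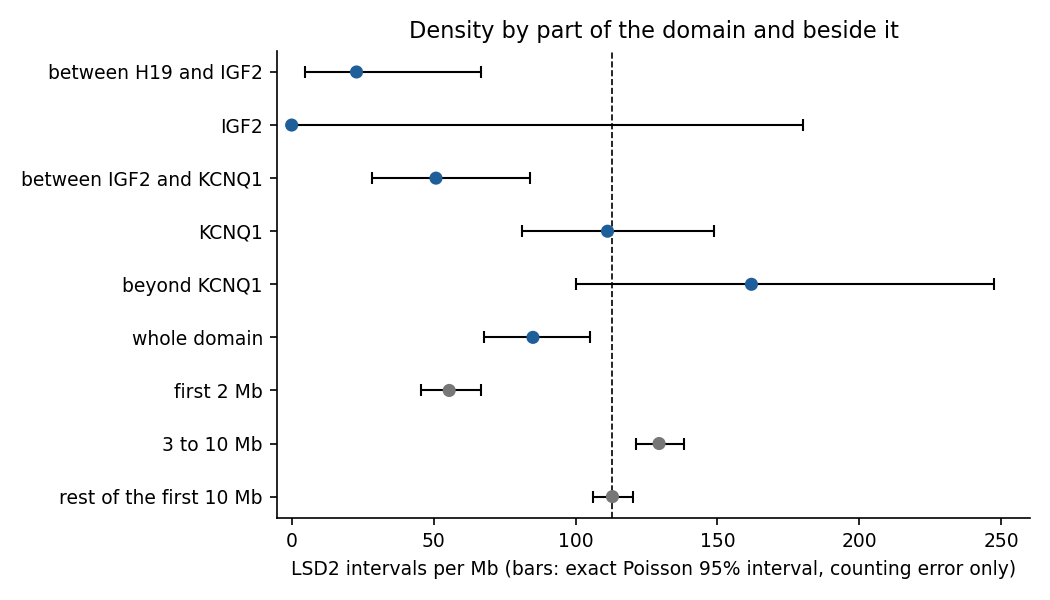
Density of LSD2 intervals (x axis, per Mb) in 5 parts of the domain, the whole domain (blue) and the sequence beside it (grey), with exact Poisson 95% intervals that cover counting error only, and the density of the rest of the first 10 Mb as a dashed line. The bars of both parts between the named genes end below the dashed line at 113 per Mb, whereas those of IGF2, KCNQ1 and the part beyond it include it.

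Taken whole, the domain had 85.0 intervals per Mb (67.9 to 105), which was 0.752 times the rest (0.596 to 0.939), and among the 10 windows of 1 Mb it had the third lowest count. The lowest counts were those of the 2 windows on its telomere side, at 69 and 42, and the window on the other side held 137. The other 9 windows held 113 ± 45.9 intervals (SD over windows), so the count of 85 was within 1 SD of their mean. Compared only with the 1 Mb on either side, the ratio was 0.950 (0.725 to 1.24), and compared with 3 to 10 Mb it was 0.657 (0.519 to 0.821). The first 2 Mb had a lower density than the domain, at 55.5 per Mb (45.7 to 66.8). The density from the domain's start to KCNQ1, 40.8 per Mb, had a counting interval that overlapped that of the first 2 Mb.

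Windows of 100 kb ranged from 2 to 21 intervals in the domain and from 0 to 59 in the rest. The 2 windows with H19 and IGF2, from 2000001 to 2100000 and from 2100001 to 2200000, had 2 intervals each, and only 3 of the 100 windows had fewer. The window from 2900001 to 3000000 had 21 and that from 2600001 to 2700000, within KCNQ1, had 20, ranking the sixth and the eighth highest. Of the domain's 10 windows 4 held 3 or fewer intervals, against 7 of the 90 others, and 2 held 20 or more, against 8 of 90. The median was 7 per window in the domain and 10 in the rest, and 7 of the domain's 10 windows, or 70.0%, were below the median of the rest.

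**Figure D5:**
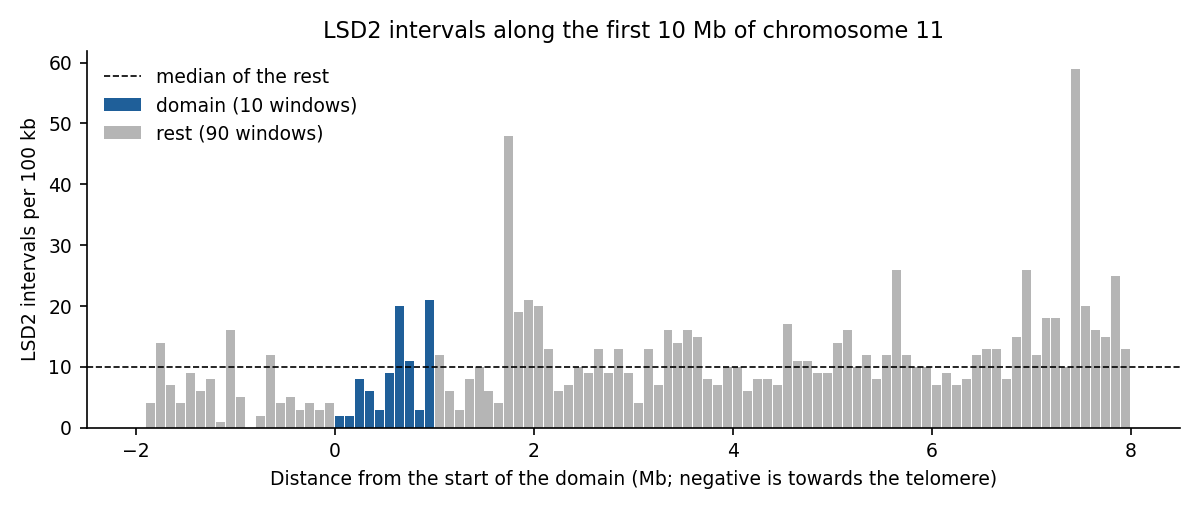
Number of LSD2 intervals in each of 100 windows of 100 kb (y axis) over the first 10 Mb of chromosome 11, by distance from the domain's start (x axis, Mb, negative towards the telomere), with the domain in blue, the other 90 windows in grey and their median of 10 as a dashed line. The domain begins with windows of 2 and ends with one of 21, and the grey windows to its left are mostly below the dashed line.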

How the data were processed

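LSD2 ChIP and input libraries of HepG2 cells gave 1 deposited list. Per the file headers, the authors trimmed reads, removed duplicates and ran MACS for LSD2 against input, with an enrichment factor of 32, a cutoff of 1e-05 on the p-value, read and fragment lengths of 120 bp and 2700 Mb as the effective genome. The submitters' processing notes name BWA and hg19, without versions. What the authors deposited are start and end positions in bases, with no score. Reads ran on the Ion PGM and Ion Proton, per the labels, and per the file headers ChIP and input carry different run dates, so run and group cannot be told apart. Depth is unknown.

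Starts were taken to count from 0 and are printed counted from 1. The 414095 lines gave 370863 distinct intervals. Each was assigned by its midpoint, and a space belongs to the interval before it. Bounds of H19, IGF2 and KCNQ1 came with the definition of the domain. Gene order and sequences came from RefSeq on GRCh38.p14, and no coordinates were converted. Densities have exact Poisson, ratios exact conditional binomial, shares Wilson, and medians order-statistic intervals, all at 95% (Python 3.11.15, scipy 1.17.1). No test was run, since each group had 1 library. The procedures were tested on simulated data. The text names each interval beside H19 and IGF2, the 5 widest, the isolated ones, the closest pair, the longest empty stretches, and the fullest and emptiest windows; the groups described as picked out after the list had been seen are additions to this. The members, bounds and comparisons were chosen with earlier results of these data known. Alternatives are given in the closing section.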

Additional observations from a re-analysis of the deposited data

How the results depend on the processing

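Values here are ratios of the domain, or of a part of it, to the rest of the first 10 Mb, except the share of windows below the rest's median and the profile of KCNQ1, which is relative to the gene's own mean. Of 67 alternative values 56 stayed within the counting interval of the value reported and 11 moved outside it. Compared with the 1 Mb on either side, the ratio of densities was 0.950 in place of 0.752, that of median widths 0.854 in place of 0.948, and that of the shares listed more than once 2.04 in place of 1.50. Leaving out the intervals of the block listed 2 times in KCNQ1, while keeping its length, was an alternative chosen after seeing the data. It gave 0.549 for density, 0.532 for covered share in place of 0.719, and 0.481 for KCNQ1 in place of 0.985. With the block's length left out too, the domain had 66.1 intervals per Mb and 1.52% covered, and KCNQ1 had 64.2 per Mb. The rest had 113 per Mb and 2.69% covered. The ratio of shares listed more than once became 0.478, and it had to fall because every interval of the block was listed 2 times. The ratio of median spaces, 0.851, turned to 1.18 without the block and to 1.07 against the 1 Mb on either side, both within its counting interval. The share of windows was 70.0% at 100 kb and 50 kb and 2 of 4 windows at 250 kb. The share listed 3 or more times had a ratio of 0, and the 1 Mb on either side also held 0 such intervals. Among intervals at least as wide as the list's median of 173 bp, the ratio was 0 both before H19 and between H19 and IGF2, in place of 0.539 and 0.202, since all 4 intervals there are narrower. The fullest of 4 equal parts of KCNQ1 had 1.87 times the gene's mean density, against 3.33 for the fullest of 10, since larger parts average more of the gene. H19 and IGF2 held 0 intervals under every alternative run. This was fixed in advance, since each alternative reused the same list and no interval lay within 10 kb of either gene. The values of these 2 genes are among the 56 that stayed and add nothing on stability. Also among the 56, assignment by overlap of 1 base left every value it was run for unchanged, so these values add nothing either. The comparison without the first 2 Mb was also chosen after seeing the data. Counting every line was not run for spaces, covered share or repeated listing, and merging not for repeated listing. No paired analysis was possible because only 1 library stood in each group. Sequencing depth, which is unknown here, limits what an empty stretch can show: sequence without an interval may hold LSD2 at a level below the cutoff.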
